A study of Rattus norvegicus with 30 samples.

Results

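The cardiac transcription factors are 10 genes: Gata4, Gata6, Nkx2-5, Tbx5, Tbx20, Mef2a, Mef2c, Hand2, Myocd and Srf. They were measured in whole hearts of untreated Fischer 344 rats, an inbred strain, in 30 animals, with groups of 5 per sex aged 8 weeks (young), 21 weeks (adult) or 78 weeks (old). The 10 genes are a list of names, looked up by symbol among the rows of the tables of normalized values that the authors made for each age, a rule that uses no measured value. Of the 10 genes, 9 had a row in every table, among 27408 rows at 8 weeks, 27383 at 21 weeks and 26553 at 78 weeks, and Tbx20, which had none, was read on its array probe. On the arrays 21 of 41012 probes were described as a member, and 16 of them make up the 9 table rows. Where a gene had several probes, the one with the highest mean level in its row (for Tbx20, its single probe) is called the lead probe.

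GATA, NK2, T-box, MEF2 and HAND proteins bind DNA together at the regulatory regions of heart muscle genes and are known from the embryo for setting up the chambers of the heart. In the adult heart they keep the genes of contraction, conduction and the natriuretic peptides active. Srf binds the serum response element, where its partner Myocd, a coactivator of smooth and heart muscle, switches on genes of the contractile apparatus.

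The sequences below are the DNA probes through which the central results on Nkx2-5, Gata6 and Hand2 were read, and the pair of Tbx5 probes that stayed near background. Each is 60 bases long, from 5′ to 3′, and its place is given in the rn3 rat genome build as the array files state it. The capitals in the pair for Hand2 mark the 27 bases that both probes hold, so these readings are not independent of each other. The first Hand2 probe lies at chr16:36325899-36325958 on the minus strand, and the second at chr16:36324470-36325925, a span of 1456 bases that a 60-base probe can cover only in separate blocks. The Nkx2-5 probe lies at chr10:16609593-16609652 on the plus strand and the lead probe of Gata6 at chr18:2512492-2512551 on the plus strand. Both Tbx5 probes lie in separate blocks on the minus strand, at chr12:37851267-37859323 and chr12:37820608-37832481. The array files assign each probe to a transcript record of its gene, and exons were not mapped here because no genome of this build was used.
Nkx2-5 A_43_P12886: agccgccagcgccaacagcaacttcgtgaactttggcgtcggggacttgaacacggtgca
Gata6 A_44_P445300: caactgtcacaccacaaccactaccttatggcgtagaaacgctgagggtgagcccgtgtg
Hand2 A_44_P214836: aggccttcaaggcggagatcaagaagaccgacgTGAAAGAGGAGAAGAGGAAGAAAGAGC
Hand2 A_44_P214837: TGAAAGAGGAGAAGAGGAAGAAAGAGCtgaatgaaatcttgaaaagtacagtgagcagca
Tbx5 A_44_P744396: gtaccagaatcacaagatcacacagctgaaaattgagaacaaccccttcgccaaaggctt
Tbx5 A_44_P744401: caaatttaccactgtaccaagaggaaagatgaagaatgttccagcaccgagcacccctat

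Each heart was hybridized to 1 array labeled with a single dye, and both sexes of an age shared each of the 8 slides, with females at one pair of positions and males at the other, so sex and position on the slide cannot be told apart. In the study's design different ages were processed in different batches, so age and batch cannot be told apart either. The scanner software called between 17182 and 24290 spots per array well above background, and 21-week males had the lowest signal as a group, with a median scaling constant (the 75th percentile of processed signals) of 72.1 against 105.9 in females of that age, although the arrays of the sexes overlapped. On 2 of the 78-week arrays, labeled female replicate 2 and male replicate 3, the Y-linked genes Ddx3y and Eif2s3y had the level seen in rats of the opposite sex. These 2 discordant arrays kept their labels, and 78-week results are given with and without them. All 6 cardiomyocyte markers (Actn2, Tnnt2, Tnni3, Myh6, Ryr2 and Myl2) were measured in the tables of every age. In whole hearts, fewer cells of a type and less RNA per cell cannot be told apart.

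Expression of 7 of the 10 factors was well above background on all 30 arrays. These were Gata4 and Gata6, zinc finger proteins that bind the GATA motif, Nkx2-5, a homeobox protein, Mef2a, a MADS box factor of muscle genes, Hand2, a basic helix-loop-helix factor, Myocd, and Srf, a MADS box factor. The remaining 3 were near background. Tbx5, the T-box factor of the left ventricle and forelimb, was well above background on 4 and 7 of 30 arrays with its pair of probes. Mef2c, a MEF2 protein of the early heart field, was well above background on 2 of 30 arrays with its lead probe and on 4 and 0 with its other probes. Tbx20, a T-box factor of the adult heart muscle, was not well above background on any of 30 arrays. No fold is given for Tbx5, Mef2c and Tbx20.

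**Figure D1:**
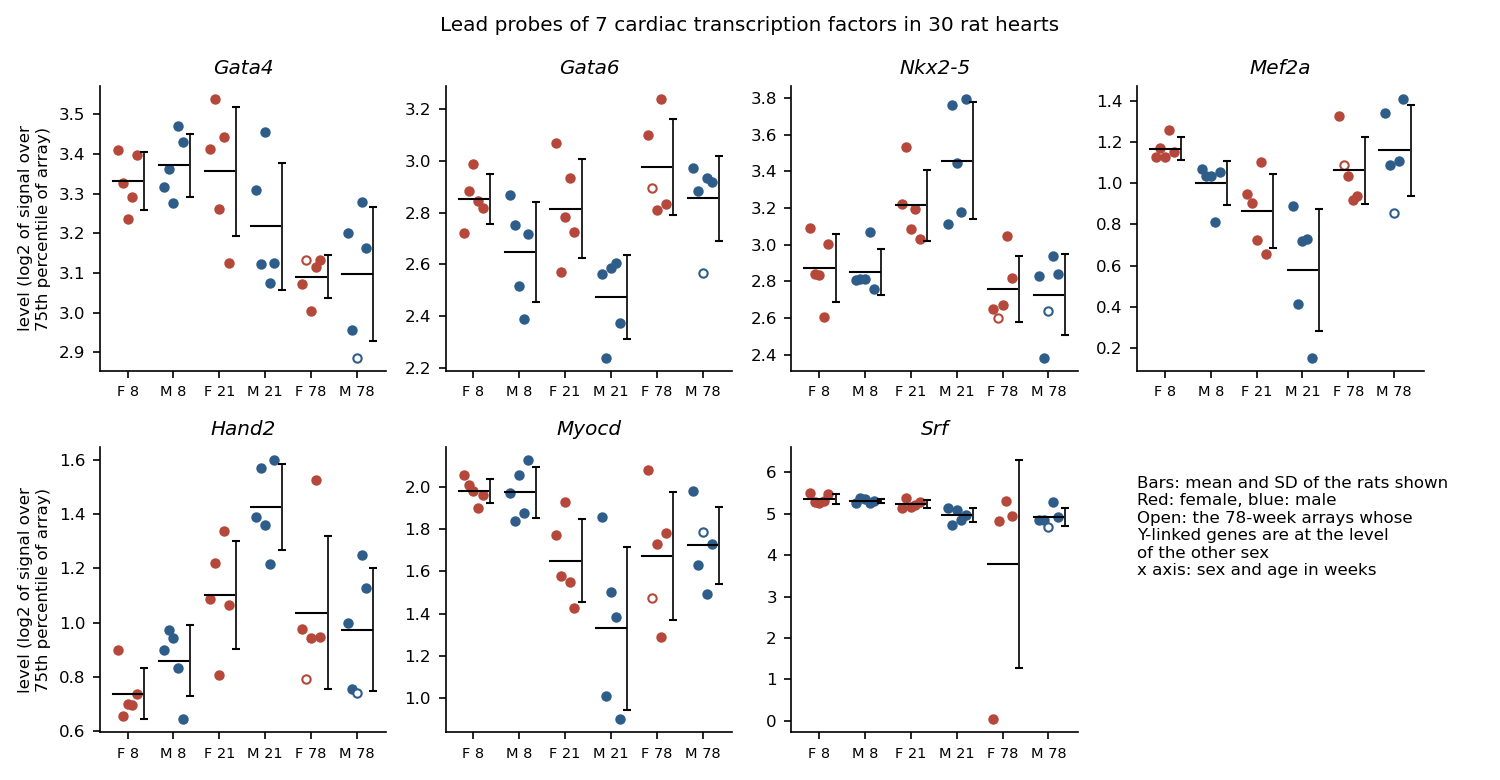
Level of the lead probe of each of the 7 measured factors in 30 hearts (log2 of the processed signal divided by the array's 75th percentile, y axis) by age in weeks (x axis), with females in red, males in blue, bars for the mean and SD, and open points for the 2 discordant arrays at 78 weeks. Nkx2-5 and Hand2 sit highest at 21 weeks, Myocd sits lowest there, and 1 spot of Srf at 78 weeks lies at 0.03, far under all others.

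The sexes were compared first within each age, as the study was designed for this comparison. Levels are log2 of the value in the authors' tables, in which the signal of a gene was divided by a constant of its array. On the arrays matched, that constant lay on average 0.68 (8 weeks), 0.71 (21 weeks) and 0.79 (78 weeks) log2 above the 75th percentile of processed signals. Differences are female minus male on the scale of the tables. limma was fitted to all rows of a table with the Benjamini-Hochberg adjustment, and a row was called at an adjusted p under 0.05. Of the 9 members with a row, 0 were called at 8 weeks, where 0.102% of all rows were called. At 21 weeks 0 of 9 were called against 0.0511% of all rows, and at 78 weeks 0 of 9 against 0% of all rows, or 0.0339% without the 2 discordant arrays. No member reached an unadjusted limma p under 0.05 at any age, where 5.74% of all rows did at 8 weeks, 15.9% at 21 weeks and 5.65% at 78 weeks. The methods' t-test put 0 of 9 members under its unadjusted threshold at each age.

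In 8-week hearts the 7 measured factors differed little between the sexes. Gata4 was 2.64 ± 0.07 (SD, n = 5) in females and 2.69 ± 0.08 in males, a difference of -0.05 with a 95% interval from -0.20 to 0.10. Myocd was 1.29 ± 0.05 and 1.30 ± 0.11, with an interval from -0.16 to 0.15, and Nkx2-5 was 2.18 ± 0.18 and 2.17 ± 0.13, with an interval from -0.22 to 0.24. The largest difference among the 7 was that of Hand2, -0.15 (SE 0.10), with levels from -1.38 to -1.09 in females and from -1.38 to -0.91 in males, which overlapped. The limma adjusted p was at least 0.935 for every member at this age. The 95% intervals of the 7 factors lay between -0.38 and 0.36.

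The widest differences between the sexes were seen at 21 weeks, in both directions, and none passed the adjusted threshold. Mef2a was -1.16, -0.67, -0.65, -0.57 and -0.56 in the 5 females and -1.48, -1.19, -1.03, -0.91 and -0.75 in the 5 males. The groups overlapped through the lowest female, and females were 1.27-fold higher (difference 0.35, SE 0.18, two-sided exact permutation p = 0.0794, limma adjusted p = 0.337). Gata6 was -0.31, -0.28, -0.08, 0.01 and 0.25 in females and -0.73, -0.54, -0.28, -0.24 and -0.10 in males, again with overlap. Females were 1.23-fold higher (difference 0.30, SE 0.16, two-sided exact permutation p = 0.103, limma adjusted p = 0.360).

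Hand2 and Nkx2-5 lay on the other side at 21 weeks. Hand2 was -1.24, -1.12, -0.98, -0.74 and -0.73 in females and -0.93, -0.72, -0.65, -0.56 and -0.48 in males, where all males but the lowest lay above every female. Males were 1.22-fold higher (difference -0.29, SE 0.15, two-sided exact permutation p = 0.0476, limma adjusted p = 0.341). Nkx2-5 was 2.31, 2.38, 2.50, 2.51 and 2.83 in females and 2.43, 2.51, 2.77, 3.05 and 3.06 in males, with a difference of -0.26 (SE 0.17) and a limma adjusted p of 0.416. The normexp background correction turned the difference of Nkx2-5 to 0.27. For Myocd the difference was 0.31 (SE 0.20), for Srf 0.17 (SE 0.13) and for Gata4 0.13 (SE 0.14), with limma adjusted p between 0.414 and 0.604. Thus 5 of the 7 measured factors were higher in females and 2 in males, with a median of 0.17 against -0.14 over all rows of the table.

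**Figure D2:**
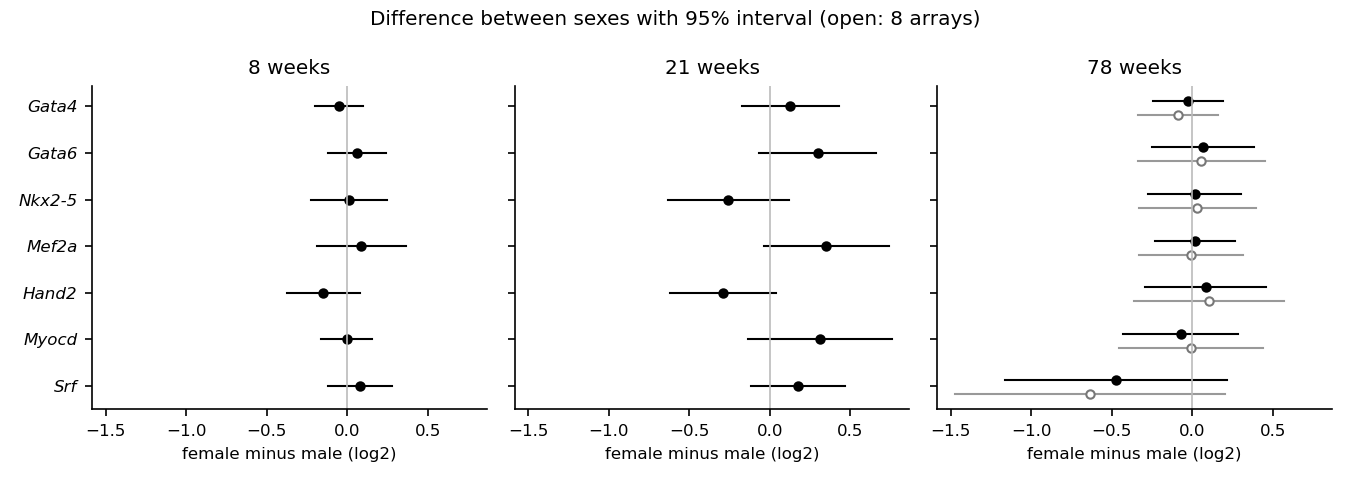
Female minus male difference (log2, x axis) of the table rows of the 7 measured factors at 8, 21 and 78 weeks, with points for the estimate and lines for the 95% interval; open points leave out the 2 discordant arrays. At 8 weeks the estimates lie within 0.15 of 0, at 21 weeks they spread from -0.29 to 0.35, and every interval includes 0.

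In old rats the sexes lay close together again. The differences of Gata4, Gata6, Nkx2-5, Mef2a, Hand2 and Myocd were between -0.07 and 0.08. Srf differed by -0.47 (SE 0.31), and by -0.63 (SE 0.36) without the 2 discordant arrays, but 1 female row value of -1.17 stood apart from the other 4 females, which lay between 0.33 and 0.59. That row value rests on 1 spot of the lead probe on the array of female replicate 1, at 0.03 on the scale of the lead probes. The other arrays of that age with a value for this spot lay between 4.69 and 5.31, and on the same array the remaining 3 probes of Srf lay within the range of the other arrays.

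The difference between the sexes was also examined for change with age in 1 fit over the probes of all 30 arrays, with a term for sex by age. Of the 10 lead probes 0 were called for that term, where 0.00244% of 41001 probes were, and 0 of the 7 measured factors reached an unadjusted limma p under 0.05, where 10.5% of probes did. The limma adjusted p of these 7 was between 0.481 and 0.707. The sex difference of Mef2a, Hand2 or any other factor at 21 weeks was therefore not shown to differ from that at the other ages.

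The sign of the sex difference was also read slide by slide for Gata6. Each of the 8 slides held both sexes, and 1 slide held 2 ages, which gave 9 sets of arrays of 1 age on 1 slide. On the scanner scale the mean of the 3 Gata6 probes of the row was higher in females in 9 of 9 sets, by 0.02 to 0.39, and the lead probe in 8 of 9, by -0.01 to 0.47. In the authors' table the order was not the same in every set, as the row was -0.20 in the female and -0.18 in the male of 78 weeks on slide 6. A further Gata6 probe, described as the gene in the array files but outside its table row, was higher in females in 9 of 9 sets, by 0.07 to 0.54. The other pair of Gata6 probes in the row were higher in females in 5 and 6 of 9 sets. Lead probes of the other measured factors were higher in females in 3 (Hand2) to 7 (Mef2a and Srf) of 9 sets. The share of all probes with the same sign in 9 of 9 sets was not computed. Without the 2 discordant arrays slide 7 keeps 78-week female replicate 3 and male replicate 2, and the lead probe was then 2.81 in the female and 2.89 in the male, the table row -0.45 and -0.33, and the probe outside the row 2.67 and 2.66.

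At 21 weeks the Gata6 probe outside the row was 3.00, 2.69, 2.81, 2.95 and 3.06 in females and 2.62, 2.26, 2.51, 2.32 and 2.53 in males. The sexes did not overlap, as was the case for 3.32% of all probes at this age, and the two-sided exact permutation p was 0.0079, the smallest that 5 against 5 rats can give. In the fit over 30 arrays the difference was 0.46 (SE 0.12) with a limma adjusted p of 0.0355, and 4.17% of all probes were called in the same comparison. No other of the 21 probes described as a member was called there, and in each of the others the sexes overlapped. At 8 weeks the difference of this probe was 0.13 and at 78 weeks 0.34, with a limma adjusted p of 0.759 at the older age. Without the 2 discordant arrays the probe was 2.87, 2.67, 3.29 and 2.65 in old females and 2.34, 2.66, 2.39 and 2.54 in old males, and the sexes overlapped. Averaged over the 3 ages, a comparison added after the values were seen, the difference of the probe outside the row was 0.31 (SE 0.07, limma adjusted p = 0.0493), where 0.334% of all probes were called. Without the 2 discordant arrays it was 0.33 (limma adjusted p = 0.0299), with 291 of 41000 probes called. That call was lost when any of 26 of the 30 arrays was left out. It held under 5 of the 7 alternatives other than single arrays, and normexp was among those that lost it. Over these alternatives the limma adjusted p lay between 0.0114 and 0.934. The lead probe of Gata6 had an average difference of 0.22 (SE 0.07, limma adjusted p = 0.148).

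For Mef2a, the lead probe separated the sexes at 8 weeks, where 1.07% of all probes did. It was 1.13, 1.17, 1.13, 1.26 and 1.15 in females and 1.07, 1.03, 1.03, 0.81 and 1.06 in males. The difference was 0.17 (two-sided exact permutation p = 0.0079, the smallest possible), and it was not called in the fit over all probes. The second Mef2a probe overlapped between the sexes at that age, as did all other member probes.

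Ages were compared next on the lead probes of the scanner files, as each table of values was scaled separately. The levels are log2 of the processed signal divided by the array's 75th percentile, and differences are older minus younger, from 1 limma fit over all 30 arrays with the sexes averaged and the slide as a random block. The correlation within slides was estimated at -0.04 in this fit, so the block did not allow for arrays of a slide being alike. Because the batches followed age, each value below is a difference between sets of arrays of different age and batch. Between 8 and 21 weeks 56.9% of 41002 probes were called, 41.6% higher and 15.3% lower at 21 weeks, so a call for a member stands beside calls for most probes. The median difference of all probes was 0.28, and quantile normalization brought it to 0.05.

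At 21 weeks 4 of the 10 lead probes were called against 8 weeks, 2 higher and 2 lower. Nkx2-5, which is needed for the growth of the heart tube and for the conduction system, was between 2.60 and 3.09 (median 2.82) at 8 weeks and between 3.03 and 3.79 (median 3.21) at 21 weeks. It was 1.39-fold higher at 21 weeks (difference 0.47, SE 0.09, limma adjusted p = 0.000257), and 8 of 10 rats lay above the highest 8-week rat. Hand2, a factor of the right ventricle, was between 0.64 and 0.97 (median 0.79) at 8 weeks and between 0.81 and 1.60 (median 1.28) at 21 weeks. It was 1.38-fold higher (difference 0.46, SE 0.09, limma adjusted p = 0.000151), with 9 of 10 rats above the highest 8-week rat. The second Hand2 probe was not called (difference 0.27, limma adjusted p = 0.0550).

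Mef2a and Myocd lay lower at 21 weeks. Mef2a was between 0.81 and 1.26 (median 1.10) at 8 weeks and between 0.15 and 1.10 (median 0.73) at 21 weeks, 1.28-fold lower (difference -0.36, SE 0.09, limma adjusted p = 0.00133). Its second probe was called in the same direction, with a difference of -0.49. Myocd was between 1.84 and 2.12 (median 1.98) at 8 weeks and between 0.90 and 1.93 (median 1.53) at 21 weeks, 1.40-fold lower (difference -0.49, SE 0.10, limma adjusted p = 0.000455). The ages overlapped for each of these 4 factors, although 8 of 10 rats for Myocd and 6 of 10 for Mef2a lay below the lowest 8-week rat. Ages that did not overlap were seen in 6.47% of probes in this comparison, in 1.94% between 78 and 8 weeks and in 3.61% between 78 and 21 weeks, and in 0 of the 10 lead probes in each.

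The remaining measured factors were not called between 8 and 21 weeks. Gata4 differed by -0.06 (SE 0.06), Gata6 by -0.11 (SE 0.08) and Srf by -0.21 (SE 0.37). Under quantile normalization Gata4 and Gata6 were called too, at -0.19 and -0.21, and without the array of female replicate 1 at 78 weeks, which holds the spot of Srf at 0.03, Srf was called at -0.24. On the lead probe of Srf 8 of 10 rats at 21 weeks lay below the lowest 8-week rat. Of the 4 Srf probes 2 were called lower, at -0.36 (limma adjusted p = 0.0178) and, outside the table row, at -0.31 (limma adjusted p = 0.0366). Another differed by 0.13 and was not called. In the rn3 build the Srf probe outside the row lies at chr9:9748372-9748431, apart from the row probes, which lie between chr9:9788278 and chr9:9794893. The array files describe it as Srf, and its identity was not checked. Under normexp 0 members were called, where 832 of 41002 probes were, and the difference of Nkx2-5 was 0.02, of Hand2 0.20, of Mef2a -0.35 and of Myocd -0.57. In females alone 0 of the 4 were called, with Nkx2-5 at 0.33, Hand2 at 0.36, Mef2a at -0.30 and Myocd at -0.33. In males alone the differences were 0.58, 0.55, -0.40 and -0.63. As 0 of the 4 were called for the sex by age term, these differences were not shown to depend on sex. No scan day held both 8-week and 21-week arrays.

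**Figure D3:**
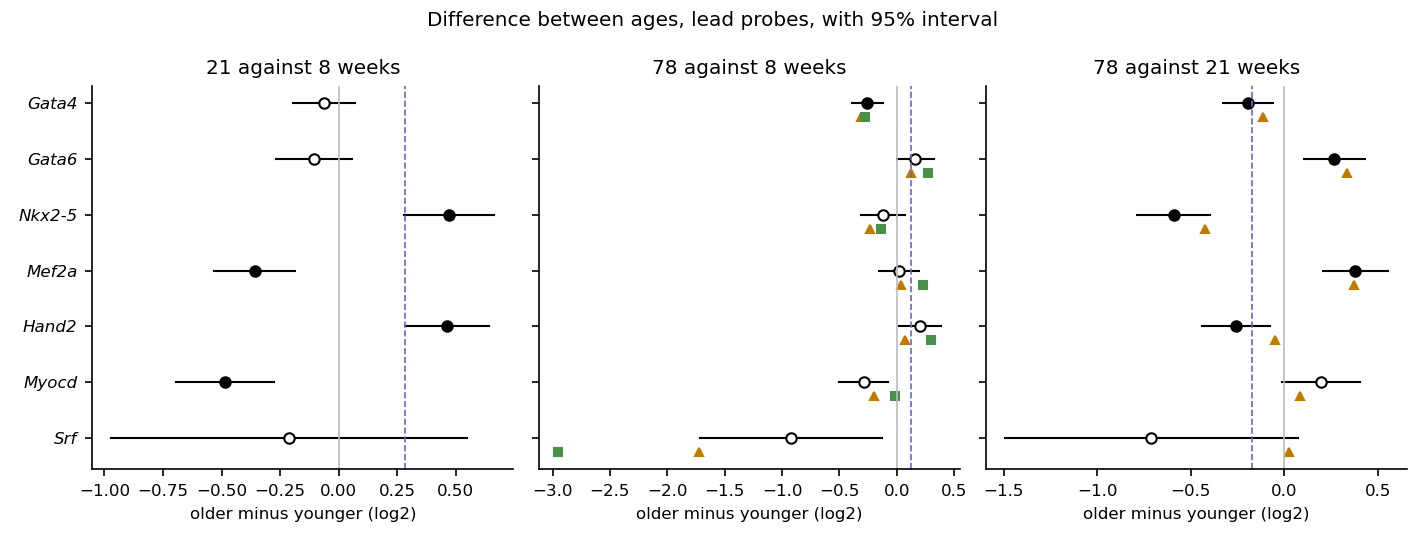
Older minus younger difference (log2, x axis) of the lead probes of the 7 measured factors in the comparisons of 21 with 8, 78 with 8 and 78 with 21 weeks, with lines for the 95% interval, filled points where the limma adjusted p was under 0.05, a dashed line at the median of all probes, triangles for arrays of 1 scan day alone and squares for the slide that holds both ages. Nkx2-5 and Hand2 lie above and Mef2a and Myocd below 0 in the comparison of 21 with 8 weeks. In that of 78 with 21 weeks Srf, which was not called and includes the spot at 0.03, lies farthest below 0 at -0.71. Nkx2-5 is next at -0.59.

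Old rats differed from 8-week rats in few factors. Of the 10 lead probes 2 were called, where 10.9% of 41004 probes were, 6% higher and 4.92% lower in old rats, and the second was Mef2c, for which no fold is given. Gata4, a factor of the hypertrophic response of heart muscle, was between 3.24 and 3.47 (median 3.34) at 8 weeks and between 2.89 and 3.28 (median 3.12) at 78 weeks. It was 1.19-fold lower in old rats (difference -0.26, SE 0.07, limma adjusted p = 0.00950), and 9 of 10 old rats lay below the lowest 8-week rat. The difference was -0.23 without the 2 discordant arrays, -0.31 on the arrays of the first scan day alone, where 22.6% of probes were called, and -0.28 on the slide that holds both ages. It was not called in females alone or males alone, at -0.24 and -0.28.

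The other factors were not called between 8 and 78 weeks. Nkx2-5 differed by -0.12, Gata6 by 0.16, Mef2a by 0.02, Hand2 by 0.20 and Myocd by -0.29, with limma adjusted p between 0.0708 and 0.892. Srf was lower by 0.92 (SE 0.38, limma adjusted p = 0.124), which includes the spot at 0.03. Without the array of that spot Srf differed by -0.36 and was called (limma adjusted p = 0.00529), it was also called at -1.20 without female replicate 4 at 78 weeks, and the limma adjusted p ranged up to 0.187 with other single arrays left out. The 4 Srf probes differed by -0.92 to -0.15. The only call among them, at -0.45, was that of the probe outside the table row, which lies apart from the others in the rn3 build. Myocd was called at -0.34 without the same array, and at -0.29 without the array of male replicate 1 or male replicate 5 at 21 weeks.

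Between 21 and 78 weeks 6 of the 10 lead probes were called, where 32.3% of 41007 probes were, 14% higher and 18.3% lower at 78 weeks. Again 1 of the 6 was Mef2c, with no fold. Nkx2-5 was between 2.38 and 3.05 (median 2.75) in old rats, 1.51-fold lower than at 21 weeks (difference -0.59, SE 0.09, limma adjusted p = 1.67e-05), and 9 of 10 old rats lay below the lowest 21-week rat. Hand2 was 1.20-fold lower (difference -0.26, SE 0.09, limma adjusted p = 0.0240) and Gata4 1.14-fold lower (difference -0.20, SE 0.06, limma adjusted p = 0.0206). The second Hand2 probe was not called (difference -0.18, limma adjusted p = 0.227). Mef2a was 1.30-fold higher in old rats (difference 0.38, SE 0.09, limma adjusted p = 0.000859) and the lead probe of Gata6 1.20-fold higher (difference 0.27, SE 0.08, limma adjusted p = 0.00902). The second Mef2a probe was not called (difference 0.20, limma adjusted p = 0.276). The other Gata6 probes were not called either, and each was lower in old rats, at -0.11, -0.04 and -0.02. Myocd differed by 0.20 and Srf by -0.71, with limma adjusted p of 0.146 and 0.157, and Myocd was called at 0.26 without male replicate 1 at 21 weeks and Srf at -0.99 without female replicate 4 at 78 weeks.

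The 21-week arrays enter this comparison and that of 21 with 8 weeks, so opposite signs in the pair are not independent of each other. The difference of Gata4 lay near the median of all probes in this comparison, -0.17, and was not called under quantile normalization (-0.06, limma adjusted p = 0.553) or with the raw median signal (-0.12, limma adjusted p = 0.169). The calls of Gata4 and Hand2 were lost without the 2 discordant arrays (-0.17 and -0.19). That of Gata4 was also lost without female replicate 2 at 21 weeks or male replicate 3 at 78 weeks, and that of Hand2 without female replicate 4 at 21 weeks or, at 78 weeks, female replicate 2, male replicate 2 or male replicate 3. On the arrays of the second scan day alone 0 of the 10 members were called, where 5.09% of probes were. The differences there were -0.42 for Nkx2-5, 0.37 for Mef2a, 0.34 for Gata6, -0.11 for Gata4 and -0.05 for Hand2. Among the old rats, Nkx2-5 was 2.63 on the 6 arrays of the first and 2.91 on the 4 arrays of the second scan day, and Hand2 0.87 and 1.21. The 21-week arrays were all scanned on the second day, and the part of the scan in these results was not tested beyond these values.

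The length of a gene on the genome moved with the differences that involve the 21-week arrays. When the measured genes, each by its brightest probe, were divided into 4 classes of equal size by the length of the gene in the RefSeq annotation of the GRCr8 assembly, the median difference between 21 and 8 weeks was 0.33, 0.22, 0.08 and -0.16 from the shortest to the longest class. Hand2 (3.34 kb) and Nkx2-5 (6.57 kb) were in the shortest class, Srf (9.29 kb) in the second, Gata6 (31.4 kb) in the third, and Gata4 (71.7 kb), Myocd (94.5 kb) and Mef2a (135 kb) in the longest. Against the median of its own class the difference of Nkx2-5 was 0.14, of Hand2 0.13, of Mef2a -0.20 and of Myocd -0.33. For female minus male at 21 weeks the medians ran the other way, at -0.21, -0.12, -0.02 and 0.12, and in the comparison of 78 with 21 weeks they were -0.33, -0.23, -0.11 and 0.10. Against the class median the sex difference of the table row at 21 weeks was -0.05 for Nkx2-5, -0.08 for Hand2, 0.00787 for Gata4, 0.32 for Gata6, 0.23 for Mef2a, 0.19 for Myocd and 0.29 for Srf. The class medians rest on brightest probes on the scanner scale, so the measures are unlike. The lead probes themselves differed by -0.32 for Hand2, 0.34 for Gata6, 0.29 for Mef2a and 0.27 for Srf, against -0.29, 0.30, 0.35 and 0.17 in the rows. Between 78 and 21 weeks the difference of the lead probe against the class median was 0.07 for Hand2, where the difference itself was -0.26. It was -0.26 for Nkx2-5, -0.30 for Gata4, 0.28 for Mef2a and 0.37 for Gata6. Between 78 and 8 weeks the medians were between -0.04 and -0.01. Gene length was examined after the values were seen, and its part in the differences of the factors was not tested.

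Markers of cell types also differed between 8 and 21 weeks. Of 22487 probes well above background on at least 3 of 5 arrays of a group, 32.4% were called higher and 26.5% lower, with a median of 0.06. For old against 8-week rats these shares were 8.93% and 8.69%, and for old against 21-week rats 24% and 29.2%. The marker counts stand beside these shares. Of 6 cardiomyocyte markers 4 were called higher and 1 lower at 21 weeks (median 0.49), of 4 atrial muscle markers 3 were higher (median 0.44), and of 6 endothelial markers 5 were lower (median -0.51). Of 6 fibroblast markers 2 were higher and 3 lower. The summed level of the cardiomyocyte markers had a median of 1935 times the 75th percentile in 8-week females and 1719 in 8-week males, of 2270 and 3122 in 21-week females and males, and of 2143 and 1955 in old females and males. Of the other markers at 21 weeks, 1 of 3 of smooth muscle was higher and 1 lower, and 1 of 4 of leukocytes, 2 of 3 of erythroid cells, 1 of 4 of adipocytes and 1 of 3 of skeletal muscle were higher. In old against 8-week rats 0 cardiomyocyte markers were called, 2 fibroblast and 2 endothelial markers were lower, 2 leukocyte markers and 1 each of the atrial, adipocyte and skeletal muscle markers were higher, and 0 of smooth muscle or erythroid cells were called. Between 21 and 78 weeks 1 cardiomyocyte marker was higher and 3 were lower in old rats, 2 atrial markers were lower, 1 fibroblast marker was higher and 3 were lower, and 3 endothelial markers were higher and 1 lower. In the same comparison 1 marker each of smooth muscle, leukocytes and skeletal muscle was higher, 1 of erythroid cells was lower and 0 of adipocytes were called. The part of these markers in the differences of the factors was not tested.

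Genes that work with the factors, or that they are known to switch on, were listed in 3 groups and read in the same fits, over probes well above background on at least 3 of 5 arrays of a group. Between the sexes 0 genes of any group were called at any age, where Tbx18 (0.54), Cacna1c (0.64) and Vcl (0.53) were among those with the smallest p at 21 weeks (limma adjusted p of 0.268, 0.268 and 0.282). Of 22487 such probes on the arrays 32.4% were called higher and 26.5% lower at 21 than at 8 weeks, with a median of 0.06. In old rats 8.93% were higher and 8.69% lower than at 8 weeks, and 24% higher and 29.2% lower than at 21 weeks.

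Of 24 measured cofactors and related factors 8 were higher and 5 lower at 21 than at 8 weeks, with a median of 0.00. Hand1, the relative of Hand2, was higher by 0.70, but was well above background on only 22 of 30 arrays. Its mean level was low, at -3.08 at 8 weeks and -2.40 at 21 weeks. Ankrd1, a muscle protein induced by load, was higher by 0.62, whereas Tead1, a factor that binds with the Yap coactivator, differed by -0.82. In old against 8-week rats 5 were higher and 0 lower, among them Ankrd1 at 0.63 and Hopx, a homeobox partner of Srf, at 0.43. Between 21 and 78 weeks 6 were higher and 5 lower in old rats.

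Of 28 measured target genes of heart muscle 15 were higher and 8 lower at 21 than at 8 weeks, with a median of 0.32. The titin gene Ttn differed by -1.64 and Nebl, a protein of the Z-disc, by -0.84, while the troponins Tnnt2 and Tnni3 differed by 0.64 and 0.62. In old against 8-week rats 3 were higher and 3 lower, with a median of 0.04 against 0.00 over all measured probes. Acta1, the skeletal actin of the heart, differed by -0.78 and Nppa, the atrial natriuretic peptide and a target of Gata4 and Nkx2-5, by 0.45. Between 21 and 78 weeks 7 were higher and 9 lower in old rats.

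Of 18 measured serum response and smooth muscle targets 4 were higher and 6 lower at 21 than at 8 weeks, with a median of -0.11. In old against 8-week rats 4 were higher and 1 lower (median 0.26), among them the immediate early gene Fos at 1.10, Egr2 at 0.59 and Ctgf at 0.56. Between 21 and 78 weeks 8 were higher and 2 lower in old rats (median 0.34, against -0.05 over all measured probes), with Myh11, the smooth muscle myosin, at 1.29, Lmod1 at 1.17 and Fos at 0.91.

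**Figure D4:**
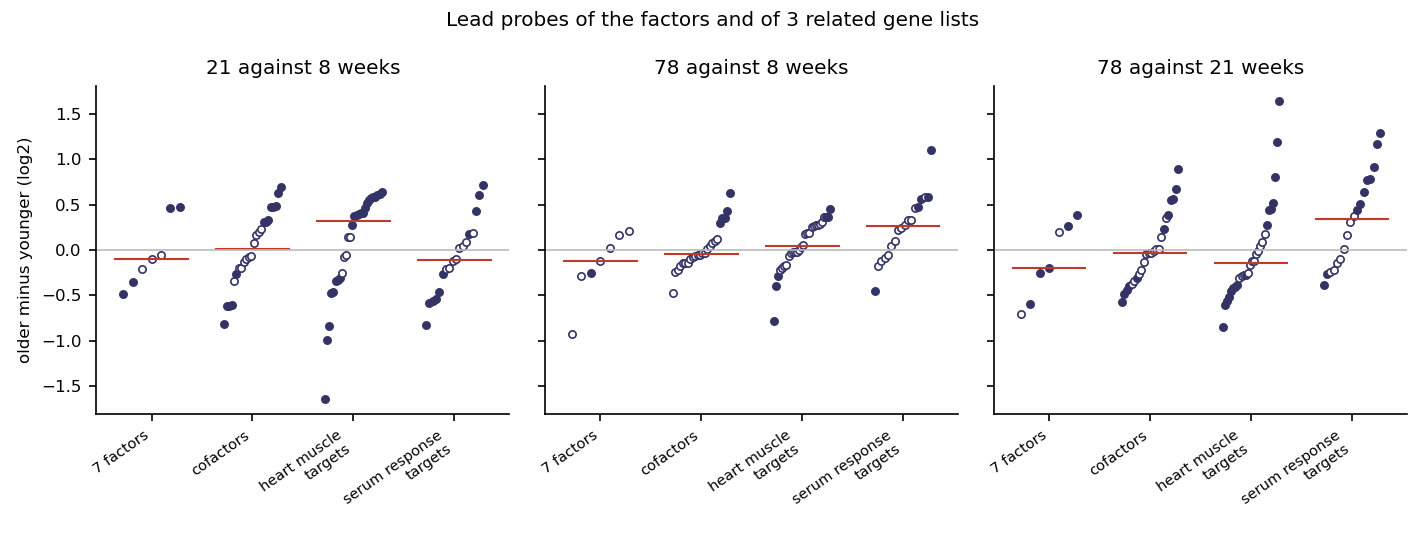
Older minus younger difference (log2, y axis) of the 7 measured factors, their cofactors, heart muscle targets and serum response targets (x axis) in each comparison of ages, with 1 point per gene, filled where the limma adjusted p was under 0.05, and a red line for the median of the group. The heart muscle targets spread from strongly lower to higher at 21 against 8 weeks, with Ttn lowest at -1.64.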

How the data were processed

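Per the methods of the study, RNA of whole hearts was labeled with a single dye and hybridized to Agilent rat arrays, and the authors averaged the probes of each gene, removed genes without expression and scaled each array by its 75th percentile. The deposited tables hold these normalized intensity values on a linear scale, and per the file headers the scanner files hold background-subtracted processed intensity values of Feature Extraction. Over genes of 1 probe, the tables were matched to the processed intensity within 0.002 log2 on all arrays whose columns name the rat. The male columns of the 21-week table carry no rat's title, and single males of that age were left out on row values rebuilt from the scanner files. As alternatives to scaling by the 75th percentile, quantile normalization, normexp and the raw median signal were run, together with a filter on dim probes, the slide as a block, a replicate block and leaving out each array. Sexes were compared within each table with limma (version 3.58.1, R 4.3.3) on log2 values, with two-sided exact permutation tests and the methods' t-test beside it, and ages on the probes of all 30 arrays with limma and the slide as a random block. The limma comparison of the sexes within an age was tested on simulated data. A limma comparison between ages was tested in the same way, with and without the slide as a block. The sex by age term, the averaged sex difference, the permutation tests and the t-test were not tested on simulated data. Spots with an outlier mark of the scanner software were left out. The labels give separate rats. The spread between 5 rats per group and the number of arrays limit the precision. All members were named, and of each gene list up to 6 genes per comparison, those with the largest called differences or, where none was called, the 2 with the smallest p, could be named. The members and lists were chosen with earlier results of these data known. The probe sequences are those of the scanner files.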

Additional observations from a re-analysis of the deposited data

Results flagged for a closer look

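Among 66 groups of 4 or 5 arrays, 10 held a highest or lowest array far from the others by Dixon's criterion, where chance gives about 1 in 20 groups. The clearest was the lead probe of Srf on 78-week female replicate 1, at 0.0283 against 4.82 on the nearest array of that group, and the Srf row of the same array, at -0.36 (the mean of log2 probe levels, as for each row here). Hand2 was highest on 78-week female replicate 4, at 1.52 for the lead probe and 0.24 for the row. Gata6 was lowest on 78-week male replicate 3, at 2.57 for the lead probe, a discordant array. On 8-week male replicate 4 the lead probe of Nkx2-5 was highest at 3.07 and that of Mef2a lowest at 0.81. The Mef2a row was lowest on female replicate 5 at 21 weeks (-0.44) and at 78 weeks (-0.18), and highest on 78-week male replicate 1 (0.32).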

How the results depend on the processing

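The numbers of members called for a sex difference within an age (0) and for the sex by age term (0) were the same under every alternative run. Between 21 and 8 weeks 0 members were called under normexp and in females alone and 9 with the raw median signal, against 4, where 832, 3261 and 32871 of 41002 probes were called, against 23315. Between 78 and 8 weeks it was 0 under normexp, in females alone and in males alone, 1 with the filter on dim probes and without both discordant arrays, and 4 with the raw median signal, against 2, and 1 to 3 with single arrays left out. Of 41004 probes 336 were called there under normexp, 780 in females, 1417 in males, 3789 without both discordant arrays and 8404 with the raw median, against 4477. Between 78 and 21 weeks it was 0 under normexp and on the second scan day alone, 1 in females alone and 3 with the raw median signal and without both discordant arrays, against 6. Of 41007 probes 284 were called there under normexp, 2084 on the second scan day, 3710 in females, 12868 with the raw median and 12422 without both discordant arrays, against 13231. For the averaged sex difference 1 lead probe, that of Gata6, was called with the filter, against 0. Signs turned for small differences. At 8 weeks Myocd was 0.00795 on scanner values, with the filter, with the slide or replicate block and in the fit over 30 arrays, and Nkx2-5 -0.0131 under quantile normalization. At 21 weeks Nkx2-5 was 0.27 under normexp. At 78 weeks Mef2a was -0.00742 without both discordant arrays, -0.0236 under normexp and -0.0352 with the raw median, Gata6 -0.0140 under normexp, and Nkx2-5 -0.34 under normexp, -0.0150 under quantile normalization and -0.0469 with the raw median. Gata4 between 21 and 8 weeks was 0.0189 in females alone. Between 78 and 8 weeks Gata6 was -0.30 under normexp, and Mef2a -0.13 under normexp, -0.10 in females alone and -0.00345 with the raw median. Srf between 78 and 21 weeks was 0.0252 on the second scan day. The causes were not tested. With single arrays left out, Nkx2-5 ranged from -0.0309 to 0.0905 and Myocd from -0.0255 to 0.0457 at 8 weeks, and at 78 weeks Gata4 from -0.0594 to 0.0390, Gata6 from -0.0369 to 0.14, Nkx2-5 from -0.0530 to 0.0856, Hand2 from -0.0294 to 0.16 and Myocd from -0.16 to 0.0417. Mef2a between 78 and 8 weeks ranged from -0.0107 to 0.0604 and the averaged sex difference of Srf from -0.45 to 0.15. Of 15 pairs of rats with the same replicate number, which share a slide, 6 correlated over 0.1 (range -0.24 to 0.37, at 78 weeks 0.05 to 0.19) and 7 best with their own number. Not every pair did, so the numbers were not taken to pair the rats, and with it as a block the counts stayed at 0, 0 and 0 for sex at 8, 21 and 78 weeks and 4, 2 and 6 for age. Signal near background leaves Tbx5, Tbx20 and Mef2c without a usable level.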
